A study of Mus musculus with 6 samples.

Results

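The 10 integrin genes described here, of the 24848 symbols in the deposited table, were measured in RAW 264.7 cells and in RAW 264.7 cells with an APOBEC1 knockout. They were taken by symbol: the leukocyte chains Itgam, Itgax, Itgal and Itgb2 and the chains that mostly bind matrix or vascular ligands, Itga4, Itga5, Itga6, Itgav, Itgb1 and Itgb5, with Itgb3 left out by the rule. RAW 264.7 is a mouse macrophage-like tumour line. The study held 3 wild-type (WT) and 3 knockout (KO) libraries of poly(A) RNA, each from a separate plate, grown alike in serum-containing medium with no treatment named in the labels. The labels leave out how the APOBEC1 gene was altered and from how many clones the KO cells came, so p-values measure the spread between plates of these lines. APOBEC1 is an RNA-editing cytidine deaminase, and the series was made to set editing read from Sanger traces beside editing read from RNA-seq. The table used here holds gene levels only.

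Integrins are receptors made of an alpha and a beta chain that join the cell to other cells or to matrix. The beta chain binds talin and kindlin inside the cell, which switches the receptor to its high-affinity form, and the alpha chain largely sets the ligand. Chains that pair with the beta chain of Itgb2 are restricted to white blood cells and serve firm adhesion, phagocytosis and contact with T cells. Chains that pair with Itgb1 or with Itgb5 bind fibronectin, laminin, vitronectin or VCAM on other cells.

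Between 50493447 and 70411383 reads fell on genes in each library, and levels are given as CPM, the reads of a gene per 1000000 reads of its library. Apobec1 itself had 373, 431 and 396 CPM in WT replicates 1 to 3 and 339, 340.1 and 361 CPM in KO replicates 1 to 3, without overlap. The difference missed the threshold (log2 fold change -0.20 ± 0.07 SE, limma adjusted p = 0.0663), and the labels do not say whether the change in the gene would lower its mRNA. Macrophage markers were present throughout: the 8 markers summed to 3715 to 3874 CPM in WT and 3946 to 4431 CPM in KO. They did not move together, since 2 were called higher (Lyz2, from 708 to 1238 CPM, and Mertk), 2 lower (Adgre1 and Fcgr1) and 4 were not called. The 8 dendritic cell markers, of which 2 (Cd209a and Ccr7) were at 0 in every library, summed to 4.47 to 5.34 CPM in WT and 2.19 to 2.66 CPM in KO, most of it Zbtb46, the 1 of them that was tested. The 8 osteoclast markers summed to 365 to 373 CPM in WT and 62.1 to 66.5 CPM in KO, most of it the cathepsin gene Ctsk. Of the 2 osteoclast markers tested, Ctsk fell from 365 to 55.0 CPM (limma adjusted p = 3.44e-07) and Atp6v0d2, a proton pump subunit, rose from 3.28 to 8.16 CPM (limma adjusted p = 0.000454). The 8 neutrophil markers, 4 of them at 0, summed to 0.925 to 1.13 CPM in WT and 3.20 to 4.72 CPM in KO, and 5 platelet markers to 14.9 to 16.5 CPM and 9.14 to 10.5 CPM. Most of the neutrophil sum was S100a8 (mean 0.944 CPM in WT and 3.99 CPM in KO). Most of the platelet sum was Pf4 (mean 15.0 CPM in WT and 9.14 CPM in KO). Lists for T, B and NK cells, mast cells, fibroblasts, endothelium and epithelium summed to at most 1.08 CPM in any library. The part of these marker differences in the integrin results was not tested.

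Of the 10 members, 9 passed the filter on low values (at least 1 CPM in at least 3 libraries) and were tested with limma on log2(CPM + 0.5). With a Benjamini-Hochberg adjusted p under 0.05 over all 10614 tested genes, 2 members were higher in KO (Itgax and Itgb2), 2 were lower (Itgav and Itgb5) and 5 were not called. The same calls took in 13.5% of the tested table upward and 16.9% downward, 30.4% together. The groups did not overlap for 5 of the 9 members, against 46.4% of the tested table, so neither count sets the members apart from it. Leaving out 1 library changed the counts: Itgb2 was lost without WT replicate 2 or 3 or KO replicate 1 or 2 (1 member higher), and both lower members were lost without WT replicate 3 or KO replicate 1 (0 lower), 1 of them without KO replicate 2 or 3. Their median log2 fold change was 0.01, against -0.02 in the tested table. The balance of the table depended on the correction used: 1436 genes were higher and 1794 lower as deposited, and 2950 higher and 2129 lower once each library's dependence on gene length and GC was taken out.

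**Figure D1:**
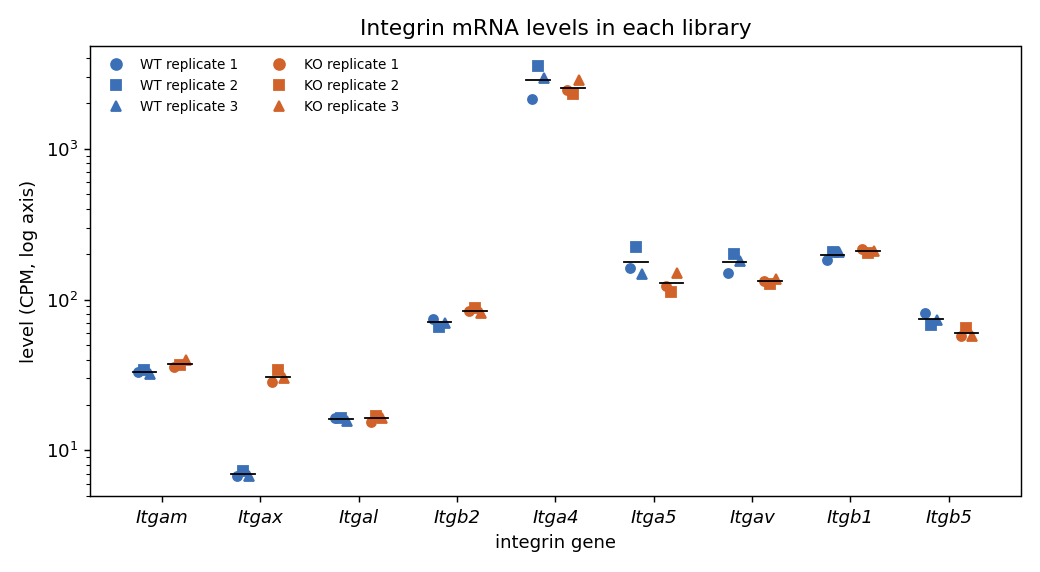
Level of 9 integrin genes (CPM, log axis) in each of the 6 libraries, with WT in blue, KO in orange, the symbol giving the replicate number and a black line for the group mean. Itgax is the gene whose groups lie furthest apart, at 6.79 to 7.27 CPM in WT and 28.4 to 33.9 CPM in KO. Itga6 is at 0 in all libraries and is not drawn.

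Of the leukocyte alpha chains Itgax was called, while Itgam and Itgal were not. Itgax, which encodes CD11c, the alpha chain of a complement receptor carried by dendritic cells and many tissue macrophages, was at 6.79, 7.27 and 6.81 CPM in WT replicates 1, 2 and 3 and at 28.4, 33.9 and 30.3 CPM in the KO replicates. Every KO library was above every WT library by a wide margin, with 343 to 2025 reads behind each value. Itgax rose 4.43-fold, from 6.96 ± 0.270 to 30.9 ± 2.79 CPM (SD, n = 3 each; log2 fold change 2.07 ± 0.09, limma adjusted p = 3.15e-06). The call held under all 18 alternatives with a test, with adjusted p from 5.76e-84 to 7.89e-05. Zbtb46, a transcription factor of dendritic cells and most of the dendritic marker sum, fell from 4.34 ± 0.426 to 1.62 ± 0.184 CPM (limma adjusted p = 0.000201). The next marker by level, Xcr1, was untested at 0.454 CPM in WT against 0.607 CPM in KO. In these bulk libraries a change in the number of cells that express a gene and a change in RNA per cell cannot be told apart.

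Itgam, which encodes CD11b, the alpha chain of the receptor for complement fragment iC3b and fibrinogen, was at 32.9, 34.3 and 32.2 CPM in WT and at 35.8, 37.0 and 39.6 CPM in KO. All KO values lay above all WT values, but the difference was small (33.1 ± 1.07 against 37.4 ± 1.93 CPM, log2 fold change 0.17 ± 0.07) and missed the threshold (limma adjusted p = 0.0992, range over alternatives 0.00445 to 0.285). It passed under 4 of 18 alternatives: TMM scaling (adjusted p = 0.0309), edgeR (0.0383), DESeq2 (0.0234) and removal of the length and GC trend (0.00445). Itgal, which encodes CD11a, the alpha chain of the ICAM receptor that lymphocytes use to adhere, was at 16.4, 16.3 and 15.7 CPM in WT and at 15.5, 16.9 and 16.5 CPM in KO. Its groups overlapped, and the 95% interval of its log2 fold change ran from -0.16 to 0.18 (estimate 0.01, limma adjusted p = 0.914).

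Itgb2 (ENSMUSG00000000290.13, chromosome 10, 77530252 to 77565708, plus strand) encodes CD18, the beta chain shared by these receptors, and was at 74.8, 66.2 and 70.4 CPM in WT and at 84.1, 87.9 and 81.1 CPM in KO. The KO values all lay above the WT values. Itgb2 rose 1.2-fold, from 70.5 ± 4.30 to 84.4 ± 3.36 CPM (log2 fold change 0.26 ± 0.07, limma adjusted p = 0.0255, range over alternatives 0.00175 to 0.104). The call was lost without WT replicate 2 (adjusted p = 0.0791), WT replicate 3 (0.0745), KO replicate 1 (0.0861) or KO replicate 2 (0.0984), and under quantile normalization (0.0784).

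Itgax and Itgam are neighbours on chromosome 7 of mm10. Itgam (ENSMUSG00000030786.18, protein-coding) spans 128062640 to 128118491 and Itgax (ENSMUSG00000030789.9, protein-coding) 128129547 to 128150657, both on the plus strand and 11055 bases apart. Itgal (ENSMUSG00000030830.18, 127296260 to 127335138, plus strand) begins at -833 kb from the Itgax start. Another annotated gene model overlaps Itgam and is not a listed symbol. Besides Itgam, tested genes within 100 kb of Itgax were Armc5 (log2 fold change 0.03 ± 0.12, limma adjusted p = 0.878) and 9130023H24Rik (-0.08 ± 0.10, limma adjusted p = 0.567), neither of them called. A window of 1 Mb around the Itgax start was chosen after the values were seen. In it the 47 tested genes other than Itgax had log2 fold changes from -0.50 to 0.25, with 1 called higher and 7 lower. On chromosome 7 as a whole, 91 of 801 tested genes were called higher and 141 lower. Over all tested genes the shares were 13.5% higher and 16.9% lower.

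**Figure D2:**
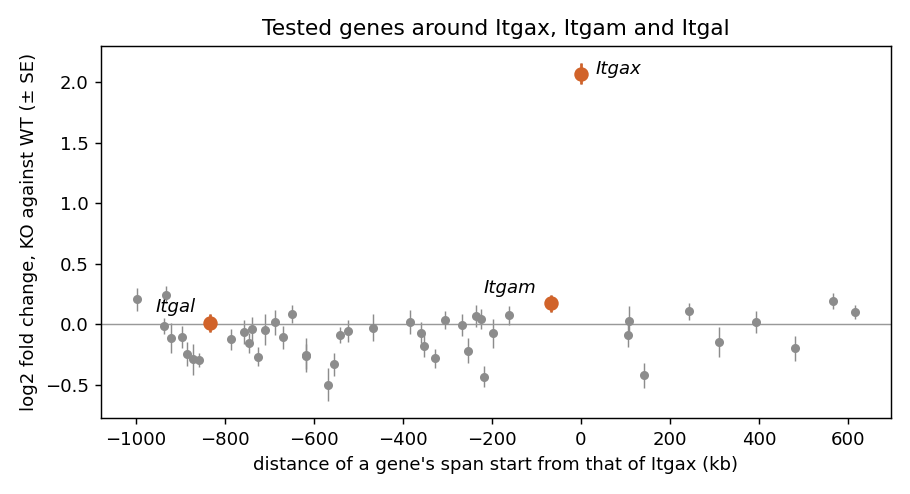
Log2 fold change (KO against WT, ± SE) of the 48 tested genes whose spans start within 1 Mb of the start of Itgax, against the distance between starts in kb. The 3 integrin genes are orange and the others grey: Itgax stands at 2.07, while the other 47 genes, Itgam and Itgal among them, lie between -0.50 and 0.25.

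The sequence before the start of both neighbours is shown because these adjacent genes of 1 family had log2 fold changes of 2.07 and 0.17, and that of Itgav and Itgb5 because both were lower in KO and their products form a receptor together. Each is the 250 bases before the RefSeq start (GRCm38.p6, plus strand, 5′ to 3′), at chr7:128129300-128129549 for Itgax, chr7:128062390-128062639 for Itgam, chr2:83724147-83724396 for Itgav and chr16:33829415-33829664 for Itgb5. Capitals mark matches on either strand to the PU box GAGGAA, a sequence bound by the myeloid factor PU.1, or to the GC box GGGCGG, bound by Sp factors.
Itgax: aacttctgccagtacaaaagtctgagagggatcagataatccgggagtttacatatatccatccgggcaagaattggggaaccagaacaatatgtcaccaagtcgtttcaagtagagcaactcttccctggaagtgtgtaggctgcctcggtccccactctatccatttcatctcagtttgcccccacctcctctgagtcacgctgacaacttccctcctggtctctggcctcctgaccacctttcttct
Itgam: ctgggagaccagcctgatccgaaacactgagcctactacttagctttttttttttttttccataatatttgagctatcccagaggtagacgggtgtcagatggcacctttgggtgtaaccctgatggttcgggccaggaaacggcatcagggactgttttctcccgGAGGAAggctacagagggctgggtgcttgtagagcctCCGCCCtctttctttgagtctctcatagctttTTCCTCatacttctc
Itgav: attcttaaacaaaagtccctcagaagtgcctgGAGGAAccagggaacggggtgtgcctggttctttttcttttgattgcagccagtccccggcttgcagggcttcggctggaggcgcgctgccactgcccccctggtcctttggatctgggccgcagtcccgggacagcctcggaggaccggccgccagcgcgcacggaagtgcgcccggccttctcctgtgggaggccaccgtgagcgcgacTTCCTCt
Itgb5: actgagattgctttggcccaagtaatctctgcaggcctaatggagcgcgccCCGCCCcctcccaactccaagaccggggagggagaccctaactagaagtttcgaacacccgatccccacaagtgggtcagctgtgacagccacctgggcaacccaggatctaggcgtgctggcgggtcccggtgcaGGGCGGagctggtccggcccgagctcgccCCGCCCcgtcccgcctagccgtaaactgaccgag

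RefSeq promoters were matched by symbol for 7 of the 10 members, all but Itgal, Itgb2 and Itga6. Besides the PU box and the GC box, the Runx core TGTGGT and the TATA box TATAAA were searched for on both strands. Of 32851 promoter windows of the same length, 23.3% held the PU box, 32.7% the GC box, 14.0% the Runx core and 12.4% the TATA box. The Itgax window held none of the 4 in exactly these letters, and other forms of these sites were not searched for. The Itgam window held 2 PU boxes, beginning 84 and 15 bases before the start, and 1 GC box. The Itgav window held 2 PU boxes and the Itgb5 window 3 GC boxes, and no matches overlapped each other in these 4 windows. Among the other 3 members, Itga4 had 1 Runx core and 1 GC box, Itga5 1 PU box and 2 GC boxes, and Itgb1 1 PU box and 1 GC box. A match is a description of letters, not of a site in use.

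Of the 12 factors listed as known to bind leukocyte integrin promoters, 11 were tested. In KO 2 rose, 1 fell and 8 were not called (median log2 fold change 0.13), against 13.5% higher and 16.9% lower over all tested genes. Spi1, which encodes PU.1, rose from 181 ± 18.4 to 236 ± 12.9 CPM (limma adjusted p = 0.0114), and Sp3 from 105 ± 22.3 to 165 ± 19.2 CPM (limma adjusted p = 0.0165). Both lie on chromosome 2, where 499 of 856 tested genes were higher in KO and 44 lower, with a median log2 fold change of 0.34. Irf8, a factor of myeloid lineages, fell from 54.0 ± 2.79 to 34.4 ± 2.01 CPM (limma adjusted p = 0.000514).

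Among the matrix and vascular receptors, Itga4, which encodes CD49d, the alpha chain of the receptor for VCAM and fibronectin, was by far the most abundant. It ranked 13 of all listed symbols by mean CPM, at 2137, 3510.2 and 2941 CPM in WT and 2436, 2302 and 2874 CPM in KO. WT replicate 1 was the lowest and WT replicate 2 the highest of the 6 libraries, so that the WT values enclosed all KO values. The log2 fold change was -0.15 ± 0.18 (95% interval -0.56 to 0.26, limma adjusted p = 0.558), and without WT replicate 2 it was 0.01. Itga4 (ENSMUSG00000027009.18, chromosome 2, 79255426 to 79333123, plus strand) shares 3.32% of its span with Cerkl on the minus strand, an unstranded count of which could not be told from Itga4 there. Cerkl averaged 4.87 CPM in WT against 3.86 CPM in KO, and whether strand was used in counting is unstated.

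Itga5 (ENSMUSG00000000555.8, chromosome 15, 103344286 to 103366763, minus strand), the alpha chain of the main fibronectin receptor, was at 162, 222 and 147 CPM in WT and 124, 113 and 151 CPM in KO. KO replicate 3 lay above WT replicate 3, so the groups overlapped. The level was 177 ± 39.9 CPM in WT and 129 ± 19.3 CPM in KO (log2 fold change -0.44 ± 0.16, limma adjusted p = 0.0780, range over alternatives 0.0127 to 0.223). It passed the threshold in DESeq2 (adjusted p = 0.0127) and under quantile normalization (0.0264). Without WT replicate 2 the log2 fold change was -0.26 (limma adjusted p = 0.127).

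Itgav, the alpha chain of receptors that recognise the RGD motif of vitronectin and fibronectin and activate latent TGF-beta, was at 149.6, 199.9 and 179.8 CPM in WT and at 133, 127 and 137 CPM in KO. All KO libraries lay below all WT libraries. Itgav fell 1.33-fold, from 176 ± 25.3 to 132 ± 5.10 CPM (log2 fold change -0.40 ± 0.10, limma adjusted p = 0.0218, range over alternatives 0.000240 to 0.0778). The call was lost without WT replicate 3 (adjusted p = 0.0736), KO replicate 1 (0.0755) or KO replicate 2 (0.0778). Itgav (ENSMUSG00000027087.11, 83724397 to 83806916, plus strand) lies on chromosome 2, and 95.1% of the tested genes of that chromosome had a higher log2 fold change. Relative to the chromosome median its change was -0.74. Its tested neighbour within 100 kb, Zc3h15, was higher in KO (log2 fold change 0.41, limma adjusted p = 0.0141).

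Itgb5, the beta chain that pairs with Itgav in a vitronectin receptor also used to engulf dying cells, was at 81.8, 67.4 and 73.1 CPM in WT and at 57.0, 64.6 and 57.4 CPM in KO. Its highest KO value stood just below its lowest WT value. Itgb5 (ENSMUSG00000022817.15, chromosome 16, 33829665 to 33949338, plus strand) fell 1.24-fold, from 74.1 ± 7.26 to 59.7 ± 4.30 CPM (log2 fold change -0.31 ± 0.09, limma adjusted p = 0.0351, range over alternatives 0.0152 to 0.129). The call was lost without WT replicate 3 (adjusted p = 0.0863), KO replicate 1 (0.129) or KO replicate 3 (0.108), with TMM scaling (0.0906), under quantile normalization (0.0521) and in edgeR (0.0642).

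Itgb1 (ENSMUSG00000025809.15, chromosome 8, 128685654 to 128733200, plus strand), the beta chain shared by most matrix receptors, was at 182, 207.1 and 206.8 CPM in WT and at 217, 205 and 211 CPM in KO. The groups overlapped, and the 95% interval of the log2 fold change ran from -0.07 to 0.25 (estimate 0.09, limma adjusted p = 0.376). Itga6, a laminin receptor chain (chromosome 2, 71745616 to 71858416, plus strand), was listed at 0 in all 6 libraries. B2m, a gene of nearly all cells, was also listed at 0 in all 6, so a value of 0 in this table need not mean that a gene was silent.

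**Figure D3:**
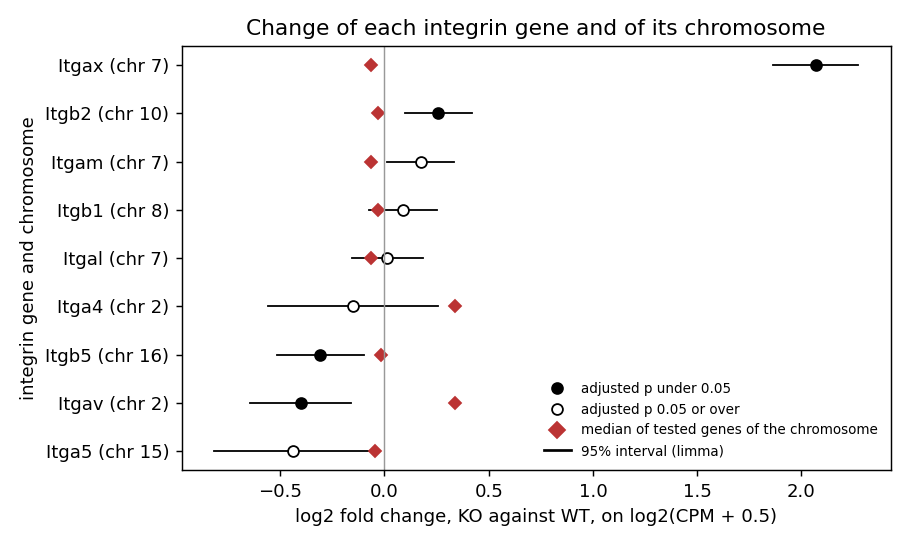
Log2 fold change (KO against WT, on log2(CPM + 0.5)) of 9 integrin genes as circles with 95% limma intervals, filled where the adjusted p was under 0.05, and the chromosome's median over its tested genes as red diamonds. Itgax, at 2.07, lies far from its chromosome median of -0.06, and Itgav, at -0.40, lies on the other side of 0 from its chromosome median of 0.34.

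WT replicate 2 held the highest WT value of Itga4, Itga5, Itgav, Itgam, Itgax and Itgb1 and the lowest of Itgb2 and Itgb5. The spread was uneven: the highest WT value was 1.64 times the lowest for Itga4, 1.51 times for Itga5 and 1.34 times for Itgav, but 1.05 times for Itgal and 1.07 times for Itgam and Itgax. The ribosomal RNA precursor Rn45s took 0.381% of reads in WT replicate 2, against 2.75% and 2.43% in WT replicates 1 and 3 and 0.542% to 1.40% in KO. Its part in the spread was not tested.

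To compare chains with each other, CPM was divided by the length of a gene's merged exons in kb. On this scale Itga4 led, at 205 ± 49.4 CPM per kb in WT and 182 ± 21.4 in KO. It was followed in WT by Itgb1 (48.6), Itga5 (35.9), Itgb2 (23.1), Itgb5 (20.9), Itgav (16.4), Itgam (6.59), Itgal (2.46) and Itgax (1.45 CPM per kb). The WT ranges of Itgb1 and Itga5, and of Itgb2 and Itgb5, overlapped, and those of other neighbours in the order did not. In KO the order was Itga4, Itgb1 (51.7), Itgb2 (27.6), Itga5 (26.2), Itgb5 (16.8), Itgav (12.3), Itgam (7.45), Itgax (6.42) and Itgal (2.48 CPM per kb). There Itgb2 and Itga5 overlapped, and Itgax stood above Itgal in all 3 libraries.

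Itgax took a larger part of the mRNA for chains that pair with Itgb2. It made up 13.5%, 14.0% and 13.9% of the summed CPM per kb of Itgam, Itgal, Itgax and Itgad in WT and 38.4%, 41.5% and 37.8% in KO. Itgam went from 62.8% ± 0.260 to 45.6% ± 2.01 of the sum and Itgal from 23.4% ± 0.470 to 15.2% ± 0.148. The Itgax share had p = 0.1 in a two-sided exact permutation test, which cannot go lower with 3 against 3 libraries. The shares add up to a whole, so the lower shares of Itgam and Itgal restate the higher share of Itgax: neither gene was called in CPM. Itgad, the remaining partner, was at 0 to 0.0300 CPM. With the length of the longest transcript in place of merged exons, the Itgax share was 14.5% in WT and 40.6% in KO.

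**Figure D4:**
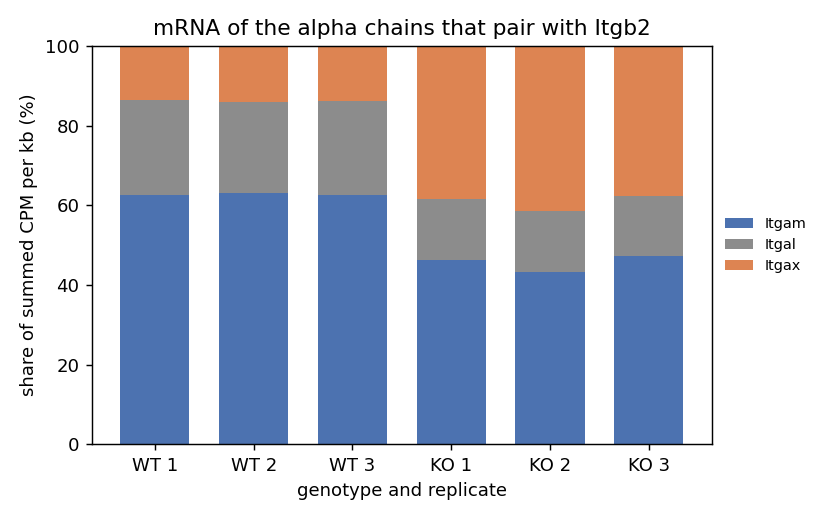
Share (%) of the summed CPM per kb that each alpha chain pairing with Itgb2 takes in each of the 6 libraries. Itgax takes 13.5% to 14.0% in WT and 37.8% to 41.5% in KO. Itgad, under 0.05%, is too small to draw.

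Ratios of alpha to beta chain mRNA, each CPM per kb, were compared for 7 known pairs, Itga6 with Itgb1 being left out for its zeros. The Itgax to Itgb2 ratio was 0.0577, 0.0698 and 0.0615 in WT and 0.214, 0.245 and 0.237 in KO, a 3.69-fold difference (exact permutation p = 0.1). The Itgal to Itgb2 ratio was lower in every KO library (0.107 ± 0.00672 against 0.0899 ± 0.00445, exact permutation p = 0.1), as was that of Itgav to Itgb1 (0.337 ± 0.0276 against 0.238 ± 0.00756, exact permutation p = 0.1). The groups overlapped for Itgam to Itgb2, Itga4 to Itgb1, Itga5 to Itgb1 and Itgav to Itgb5 (exact permutation p = 0.5, 0.2, 0.2 and 0.8 in that order, adjusted 0.583, 0.28, 0.28 and 0.8). Itgav and Itgb5, both lower in KO, had a ratio of 0.800 ± 0.189 in WT and 0.738 ± 0.0759 in KO. With 3 against 3 libraries no ratio could reach a p under 0.1, and the adjusted p (Benjamini-Hochberg over the pairs) of the 3 at 0.1 was 0.233. These are ratios of mRNA and say nothing of receptors at the surface. They are built from the same CPM values as the single-gene calls, so they are no further evidence. There, Itgax and Itgb2 were higher, Itgav was lower, and Itgal and Itgb1 were not called.

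Of 16 other integrin chains, 4 passed the filter. Among these 1 rose, 2 fell and 1 was not called, against 13.5% higher and 16.9% lower over all tested genes. The called chains, Itgb3, Itga7 and Itgb4, passed the filter only through the group where they were higher, so the filter itself shaped this count. Itgb3, the other beta chain of vitronectin receptors and a marker of osteoclasts, fell from 6.09 ± 0.718 to 0.55 ± 0.155 CPM (log2 fold change -2.65 ± 0.14, limma adjusted p = 8.77e-06), while of the tested osteoclast markers Ctsk fell and Atp6v0d2 rose. The part of osteoclast-like expression in the fall of Itgb3 was not tested. Itga7, a laminin receptor chain of muscle, fell from 1.82 ± 0.0789 to 0.0659 ± 0.0341 CPM (limma adjusted p = 8.77e-06). Itgb4, which pairs with Itga6 in hemidesmosomes, rose from 0.415 ± 0.0526 to 1.61 ± 0.126 CPM (limma adjusted p = 0.000148). The other 12 chains were not tested because of low values.

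Of the 19 genes listed for activating integrins from inside, 15 were tested: 3 rose, 1 fell and 11 were not called (median log2 fold change -0.03). By the same calls 13.5% of the tested table rose and 16.9% fell. Apbb1ip, which encodes the Rap effector RIAM, rose from 236 ± 18.7 to 409 ± 5.53 CPM (limma adjusted p = 0.000148), Stk4, a kinase downstream of Rap, from 207 ± 9.57 to 308 ± 6.96 CPM (limma adjusted p = 0.000361) and Rapgef1, a Rap exchange factor, from 210.4 ± 17.4 to 298 ± 20.7 CPM (limma adjusted p = 0.00301). These 3 lie on chromosome 2, where 499 of 856 tested genes were called higher and 44 lower. Tln2, a talin gene, fell from 40.1 ± 2.92 to 26.5 ± 2.12 CPM (limma adjusted p = 0.00189).

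In the list of adhesion plaque proteins, 8 of 15 tested members of 20 rose, 2 fell and 5 were not called (median log2 fold change 0.24). By the same calls 13.5% of the tested table rose and 16.9% fell. The groups did not overlap for 11 of the 15, against 46.4% of that table. A difference between this list as a set and the table was not tested. Rsu1, part of the complex of integrin-linked kinase, rose from 79.8 ± 1.80 to 128 ± 5.61 CPM (limma adjusted p = 0.000154) and lies on chromosome 2. Actn1, an actinin, rose from 152 ± 8.82 to 192 ± 8.04 CPM (limma adjusted p = 0.00730) and Parvb, a parvin, from 40.3 ± 4.56 to 53.9 ± 2.90 CPM (limma adjusted p = 0.0112). Tns1, a tensin, fell from 69.3 ± 4.70 to 40.7 ± 2.99 CPM (limma adjusted p = 0.000392).

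Of 13 membrane and sorting partners of integrins, 12 were tested: 3 rose, 1 fell and 8 were not called (median log2 fold change 0.03). The whole tested table had 13.5% called higher and 16.9% lower. Plaur, the urokinase receptor, rose from 8.67 ± 1.15 to 15.4 ± 0.0450 CPM (limma adjusted p = 0.000846), the tetraspanin gene Cd82, on chromosome 2, from 45.3 ± 2.86 to 61.8 ± 3.55 CPM (limma adjusted p = 0.00356) and Slc3a2 from 251 ± 18.6 to 294 ± 8.98 CPM (limma adjusted p = 0.0396). Cd9, another tetraspanin, fell from 502 ± 8.97 to 428 ± 22.3 CPM (limma adjusted p = 0.0265).

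Some genes for integrin ligands were also called, beside 13.5% of all tested genes called higher and 16.9% called lower. Of 3 tested ligands on the cell surface (of 10), Icam1 rose from 34.2 ± 1.04 to 46.8 ± 1.24 CPM (limma adjusted p = 0.00152). Icam1 encodes a ligand of the Itgal and Itgam receptors. F11r, a junctional adhesion molecule, fell from 2.14 ± 0.339 to 0.165 ± 0.0365 CPM (limma adjusted p = 2.85e-05). Of 28 matrix and soluble ligands, 7 were tested, and 2 rose and 5 fell (median log2 fold change -0.68). Mfge8, which bridges dying cells to receptors of the Itgav chain, fell from 26.4 ± 2.37 to 12.2 ± 0.757 CPM (limma adjusted p = 0.000105). Edil3, a related ligand with an RGD motif, fell from 49.4 ± 12.3 to 13.8 ± 1.22 CPM (limma adjusted p = 0.000263), the laminin chain Lamb2 from 1.55 ± 0.304 to 0.139 ± 0.0468 CPM (limma adjusted p = 9.28e-05) and Vwf from 39.6 ± 0.514 to 24.7 ± 3.37 CPM (limma adjusted p = 0.00210). F11r and Lamb2 passed the filter on low values only through the WT libraries, so they entered these counts only because they were high there.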

How the data were processed

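The submitters' processing notes name mm10, STAR 2.6.0a, Trim Galore, FastQC, Picard and SAMtools. Duplicates were removed per the file headers. A read counter, an annotation and a strand setting were not given in the sources used here. CPM values were deposited by the authors, scaled to 1000000 per library. Every value above 0 was a whole multiple of 1 read (100%, tolerance 0.01), so reads were recovered for the tools that need counts.

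Genes reaching 1 CPM in at least 3 libraries were fitted as log2(CPM + 0.5) with limma 3.58.1 (R 4.3.3, eBayes with a mean-variance trend, KO against WT, no covariates). P-values were adjusted (Benjamini-Hochberg) over all 10614 of them and called under 0.05. Fold changes on that scale understate those of low genes. Alternatives were other pseudocounts, filters and scalings, a replicate block, edgeR 4.0.16, DESeq2 1.42.0, removal of a length and GC trend, the chromosome median, transcript length and leaving out each library. Leaving libraries out of the Itgax share was chosen after seeing the data. Spans and lengths come from GENCODE M21 (mm10, 24305 symbols matched) and promoters from RefSeq (GRCm38.p6). The members and lists were chosen with earlier results of these data known. Named were all members, up to 4 called genes of each list by adjusted p, and neighbours within 100 kb of members called with at least a 2-fold change. B2m, Zbtb46, Ctsk, Cerkl, the other markers, Zc3h15, Tbc1d10b, Sephs2, Zfp764, Pdk1, Gpr84 and the low integrin chains were named outside that rule, after their values were seen.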

Additional observations from a re-analysis of the deposited data

How the results depend on the processing

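The rise of Itgax passed under all 18 alternatives with a test (log2 fold change 2.00 to 2.19), and its share of the partner chains differed by 24.3 to 26.2 percentage points. The other calls were less stable. Members called higher numbered 2, but 1 under quantile normalization and 1 with the replicate block, 3 with TMM scaling, after removal of the length and GC trend, in edgeR and in DESeq2, and 1 to 2 when a library was left out. Members called lower numbered 2, but 1 with TMM scaling, 1 in edgeR and 1 with the replicate block, 3 in DESeq2, and 0 to 2 when a library was left out. The whole table moved as well. From 1436 genes higher and 1794 lower, it went to 1840 and 1569 with TMM scaling and 1639 and 1720 in edgeR. It held 1870 and 1888 in DESeq2, 1570 and 1486 under quantile normalization, and 891 and 1118 with the replicate block. Leaving out a library gave 957 to 1662 higher and 1016 to 2099 lower. Itgb2 missed the threshold under quantile normalization (0.23) and with the replicate block (0.26, adjusted p = 0.104 in limma), with log2 fold changes of 0.22 to 0.30 over left-out libraries. Itgb5 missed it with TMM scaling (-0.26), under quantile normalization (-0.33), in edgeR (-0.29) and with the replicate block (-0.31, adjusted p = 0.0989 in limma), with -0.37 to -0.23 over left-out libraries. Itgav ranged from -0.52 to -0.31 over left-out libraries and was -0.74 relative to its chromosome's median, as against -0.49 for Itga4, 0.24 for Itgam and 0.077 for Itgal. Itgam passed with TMM scaling (0.22), in edgeR (0.20), in DESeq2 (0.20) and with the length and GC trend removed (0.22). Itga5 passed under quantile normalization (-0.52) and in DESeq2 (-0.42). Values near 0 changed sign: Itgal without Rn45s in the totals (-0.0011) and over left-out libraries (-0.012 to 0.047), Itgb1 under quantile normalization (-0.0032), Itga4 over left-out libraries (-0.35 to 0.011) and the log2 ratio of Itgav to Itgb5 (-0.28 to 0.068). The cause was not tested.

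Over all genes 3230 were called, against 2009 with the replicate block, 1973 without KO replicate 1 and 5079 with the length and GC trend removed. Libraries of the same number deviated from their group means with correlations of -0.25, -0.64 and -0.17 over genes. Of the 3 WT libraries, 0 correlated best with the KO library of its own number. The highest correlations were 0.61 (WT replicate 2 with KO replicate 3) and 0.58 (WT replicate 1 with KO replicate 2). Deviations from a group mean sum to 0, so these values depend on each other and cannot show how the plates were run. With 3 libraries a group, a difference as small as that of Itgam (1.13-fold) was not called although 1663 to 2637 reads lay behind each value. The lowest tested member, Itgax in WT, rested on 343 to 490 reads.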

Other observations

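Integrin chains under the filter on low values were present at up to 1.23 CPM. Itgae, the alpha chain of a receptor for E-cadherin, had 0.713, 1.13 and 0.582 CPM in the WT libraries and 0.398, 0.569 and 0.660 CPM in the KO libraries. Itga10, a collagen receptor chain, had 0.812, 1.23 and 0.685 CPM in WT against 0.497, 0.418 and 0.750 CPM in KO. In both genes WT replicate 2 was the highest library, as it was for Itga4, Itga5 and Itgav, and the groups overlapped. Itga9, which passed the filter, had 2.02 CPM in the first WT library but 0.638 and 0.856 CPM in the others, against 1.78, 1.79 and 1.43 CPM in KO, and was not called (log2 fold change 0.46 ± 0.27, limma adjusted p = 0.243).

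Of the genes within 100 kb of members other than Itgax and Itgam, limma called 1 higher and 2 lower of 12 tested near Itgal, 1 higher of 5 near Itga5, the 1 tested near Itga6 and the 1 tested near Itgav (both higher), and none of 4 near Itgb2, 1 near Itga4 and 1 near Itgb5. Those near Itgal were Tbc1d10b (log2 fold change 0.25), Sephs2 (-0.29) and Zfp764 (-0.27), and that near Itga6 was Pdk1 (0.46). Pdk1 and Zc3h15, the gene near Itgav, lie on chromosome 2. There 499 of 856 tested genes were called higher and 44 lower, with a median log2 fold change of 0.34. The whole tested table had 13.5% called higher and 16.9% lower. Gpr84, a receptor for fatty acids near Itga5, was higher in KO (2.03 ± 0.332 against 4.28 ± 0.471 CPM, log2 fold change 0.92 ± 0.13, limma adjusted p = 0.00149), while Itga5 itself was not called.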
